A study of Mus musculus with 12 samples.

Results

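Sphingosine-1-phosphate (S1P) is a signalling lipid that guides leukocytes along its gradient between tissue, lymph and blood and that keeps endothelial junctions closed. The genes described here are the 9 genes for its making, export, sensing and removal, chosen by name as members of this pathway among 52636 counted genes. The kinase genes are Sphk1 and Sphk2, the exporter gene is Spns2, the receptor genes are S1pr1, S1pr2 and S1pr3, and the genes of the degrading enzymes are Sgpl1, Sgpp1 and Plpp3. All 9 passed the filter on low counts and are among the 21440 genes tested.

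The study sequenced RNA of lymphatic endothelial cells (LECs) that were sorted out of lung tissue. The mice carried the Prox1-EGFP reporter, in which regulatory sequence of Prox1 drives GFP. Mice breathed cigarette smoke (CS) in whole-body chambers from 6 weeks of age, or room air (RA) as age-matched controls. Acute exposure lasted 8 weeks (2 CS and 2 RA libraries) and chronic exposure 24 weeks or more (5 CS and 3 RA libraries), with both sexes in each group. The methods state that cells of 2 to 5 mice of one condition were pooled at the 8-week CS time point, without saying plainly whether this covers acute RA, and that chronic samples were not pooled. All mice carried the reporter, and the methods give a labelled isolectin injection shortly before sacrifice for the sorted mice. Cells were gated on GFP and CD31, without EpCAM or hematopoietic lineage markers, and are named below by group, sex and number. Expression is given in CPM, the usual per-library scale of the deposited counts after division by library size and TMM factors. Levels of different genes are ranked only in FPKM, which also divides by exon length. Ratios between genes in CPM are compared only across libraries.

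S1P is made inside the cell when a sphingosine kinase phosphorylates sphingosine, and is carried out of endothelial cells by the transporter Spns2. LECs are a known source of the S1P in lymph, and lymphocytes follow it out of lymph nodes through the receptor S1pr1. Inside the cell the lipid is cleaved for good by the lyase Sgpl1 or turned back into sphingosine by the phosphatase Sgpp1, and outside it is dephosphorylated at the cell surface by Plpp3.

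The libraries held 18821438 to 56998590 counts, and 8 of 9 lymphatic endothelial markers were lower without overlap in the acute CS libraries, where 50.1% of all genes did not overlap in either direction. Prox1, the transcription factor that defines LECs, averaged 2358 ± 168 CPM in the 2 acute RA libraries and 1152 ± 156 CPM in the 2 acute CS libraries (SD, n = 2 for both, log2 fold change -1.03, edgeR's adjusted p = 0.00797). This call of Prox1 was lost without acute CS F, acute RA F or acute RA M (edgeR's adjusted p = 0.0601, 0.0504 and 0.0919), with log2 fold changes of -1.18 to -0.90 over the 4 fits that each left out 1 acute library. The summed CPM of 9 lymphatic endothelial markers lay at 16025 to 17896 in acute RA and 6771 to 10327 in acute CS, at 20901 to 23704 in chronic RA and 15741 to 21987 in chronic CS. Lyve1 was the exception, at 443 and 536 CPM in acute RA F and M and at 568 and 986 CPM in acute CS F and M (log2 fold change 0.67, edgeR's adjusted p = 0.307). Of these markers Ccl21a, whose near-identical copies can take its reads, did not exceed 1.06 CPM in any library, and the others were counted in every library. Leukocyte, alveolar macrophage, mesenchymal and blood endothelial markers summed higher in both acute CS libraries, and epithelial and erythroid markers each in only 1 of them. The sum of 8 leukocyte markers lay at 238 to 251 CPM in acute RA and 1385 to 2054 CPM in acute CS, and Ptprc, the CD45 gene, rose from 19.7 ± 0.118 to 219 ± 92.3 CPM (SD, n = 2 in each group, edgeR's adjusted p = 0.0121). The sum of 12 alveolar macrophage markers lay at 1103 to 1216 CPM in acute RA and 4619 to 7347 CPM in acute CS, with 11 of the 12 higher without overlap, again beside 50.1% of all genes. The other listed gene, Mrc1, was lower without overlap, at 647 ± 22.2 CPM in acute RA and 338 ± 103 CPM in acute CS (SD, n = 2 for both, log2 fold change -0.94, edgeR's adjusted p = 0.0155). It made up 663 of the 1216 CPM in acute RA F and 632 of the 1103 CPM in acute RA M. Cd68 of the same list was counted at 6.94 and 11.9 CPM in these libraries and at 156 and 134 CPM in acute CS F and M. Which cells gave the Mrc1 reads was not tested. The sum of 11 mesenchymal markers lay at 150 to 217 CPM in acute RA and 704 to 1073 CPM in acute CS, and that of 11 blood endothelial markers at 4895 to 5876 CPM and 8449 to 8512 CPM. Of the blood endothelial markers 8 were higher and 1, Cldn5, lower without overlap (50.1% of all genes), while Plvap and Emcn overlapped. Plvap and Cldn5 weighed most in the sum, at means of 2590 and 2113 CPM in acute RA (n = 2). Vwf averaged 46.1 CPM there and 1452 CPM in acute CS (n = 2). In chronic CS their sum lay at 4646 to 5743 CPM beside 5890 to 5994 CPM in chronic RA. There 4 of 11 were higher and 0 lower without overlap (9.41% of all genes). The sum of 11 alveolar epithelial markers was 6874 CPM in acute CS F and 282 CPM in acute CS M, beside 802 to 1115 CPM in acute RA, and that of 7 erythroid markers reached from 10.7 to 698 CPM in acute CS and from 37.7 to 69.9 CPM in acute RA. In bulk RNA, fewer cells of a type and less RNA per cell cannot be told apart. Alveolar epithelial markers were higher in chronic CS, where the sum of 11 genes lay at 982 to 4879 CPM beside 270 to 509 CPM in chronic RA, with 10 of the 11 without overlap against 9.41% of all genes. The part of these markers in the results below was not tested. Among the chronic CS libraries, F, M1 and M2 held 18821438 to 22885446 counts and M3 and M4 held 45436986 to 47494020.

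LECs held far more mRNA for the receptor S1pr1, the surface phosphatase Plpp3 and the exporter Spns2 than for the kinases, the intracellular degrading enzymes or the other 2 receptors. S1pr1 stood at 356 ± 41.9 FPKM in room air (SD, n = 5 libraries), above 99.5% of the 15186 protein-coding genes tested. Plpp3 stood at 153 ± 8.91 FPKM, above 98.4% of them, and Spns2 at 70.2 ± 18.1 FPKM, above 95.6% (SD, n = 5 for both). This order of the leading 3 genes held in each of the 12 libraries, and their ranges did not overlap.

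Below these came Sgpl1, Sgpp1 and Sphk2, all genes of intracellular enzymes. Sgpl1 stood at 8.88 ± 0.896 FPKM, Sgpp1 at 7.95 ± 0.310 FPKM and Sphk2 at 6.93 ± 0.911 FPKM in room air (SD, n = 5). Over all 12 libraries the ranges of these 3 overlapped. In room air those of Sgpl1 (8.12 to 10.4 FPKM) and Sphk2 (5.92 to 7.92 FPKM) did not. Sgpl1 was the higher of Sgpl1 and Sgpp1 in 10 of 12 libraries, and Sgpp1 the higher of Sgpp1 and Sphk2 in 9 of 12. Sphk2 exceeded Sphk1, at 2.67 ± 1.01 FPKM (SD, n = 5), in each of the 12 libraries, and the ratio of Sphk1 to Sphk2 ran from 0.213 to 0.889. S1pr2, at 0.836 ± 0.343 FPKM, and S1pr3, at 0.795 ± 0.490 FPKM (SD, n = 5), had the lowest means in room air, with overlapping ranges and S1pr2 above S1pr3 in 4 of 12 libraries. S1pr1 made up 98.3% to 99.8% of the FPKM summed over these 3 receptors. That sum leaves out S1pr4, counted at 12.4 to 26.4 CPM in room air, and S1pr5.

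**Figure D1:**
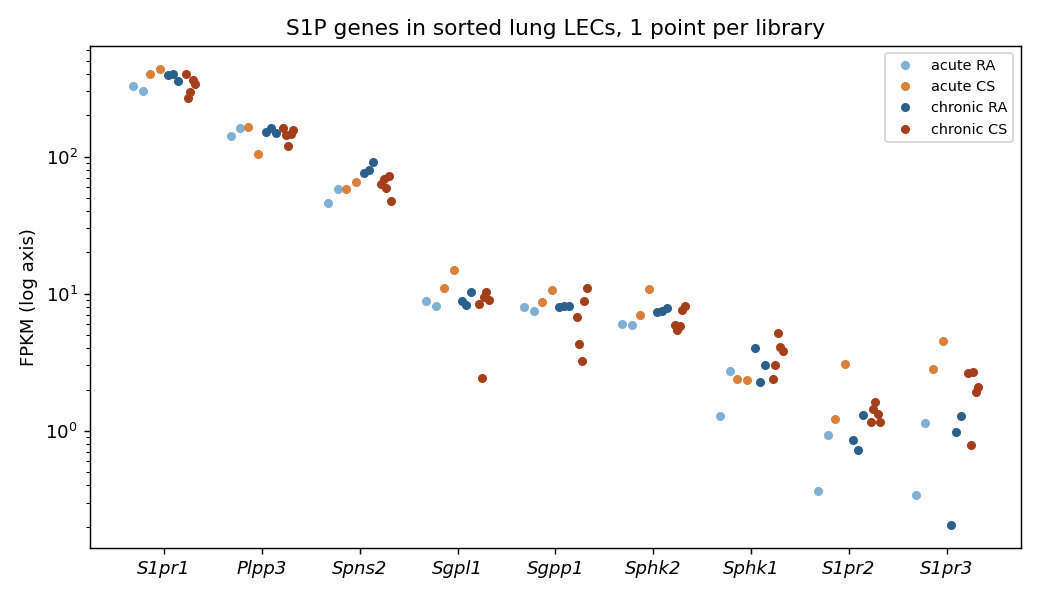
FPKM of the 9 S1P genes (log axis), with 1 point per library and colours for the 4 groups. S1pr1, Plpp3 and Spns2 lie in separate bands at the top in every library, Sgpl1, Sgpp1 and Sphk2 overlap below them, Sphk1 overlaps Sgpl1 and Sgpp1 as well as S1pr2 and S1pr3, and the last 2 have the lowest means.

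With acute smoke 8 of the 9 genes had a positive log2 fold change and Plpp3 a negative one, the 2 minor receptors with the largest, but none passed edgeR's adjusted p of 0.05, where 3.47% of all genes tested did. At an unadjusted p under 0.05 there were 4 of 9 (Sphk2, S1pr1, S1pr2 and S1pr3), against 15.7% of all genes. These p-values take their spread from all 4 groups. Fitted to the acute libraries alone, edgeR gave 2 of 9, S1pr3 and Sgpl1 (unadjusted p = 0.0241 and 0.0372). S1pr1, S1pr2 and Sphk2 then had edgeR's unadjusted p of 0.0517, 0.0587 and 0.089. That fit called 139 of 19815 genes after adjustment, beside 745 of 21440 in the main fit. In 7 of the 9 all acute CS libraries lay above all acute RA libraries, against 50.1% of all genes without overlap in either direction. DESeq2, which called 8.98% of all genes, called 2 of the 9, S1pr2 (adjusted p = 0.0151) and S1pr3 (adjusted p = 0.0424). The median log2 fold change was 0.412 for the 9 genes and 0.041 for all genes. With 2 libraries against 2 the exact two-sided permutation test cannot go below 0.333. Without acute CS F or without acute RA F, 0 of the 9 had an unadjusted p under 0.05.

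With chronic smoke 3 of the 9 genes had a positive and 6 a negative log2 fold change, and none passed the adjusted p, as for all genes tested (0%). Spns2 alone had an unadjusted p under 0.05, against 10.9% of all genes, and alone had groups that did not overlap, against 9.41% of all genes. DESeq2 also called none of the 9, and called 524 of all genes (2.44%). The median log2 fold change of the 9 was -0.199, beside 0.014 for all genes. The smallest p of the exact test with 5 libraries against 3 is 0.0357.

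**Figure D2:**
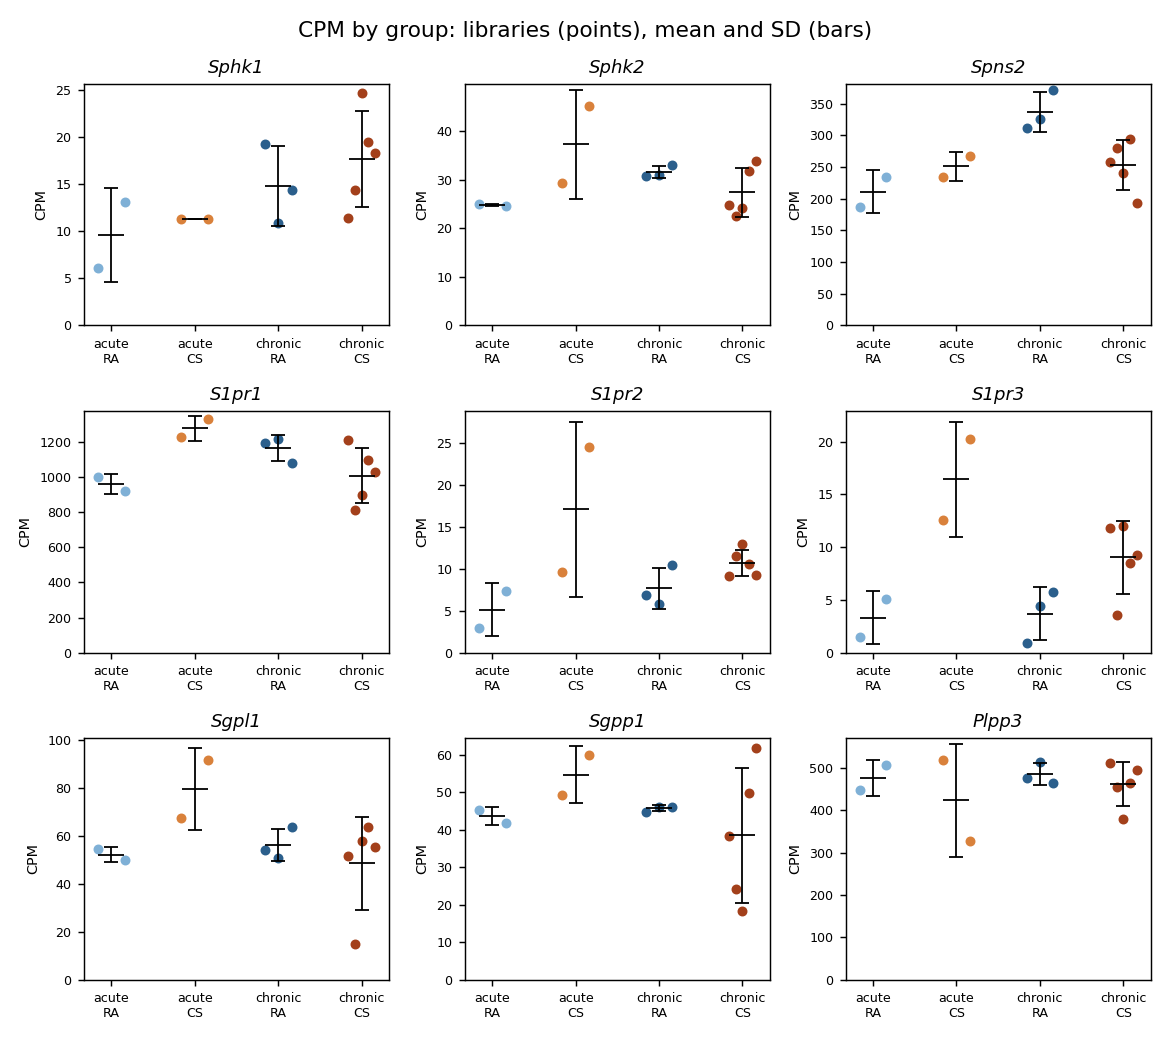
CPM of each gene by group (axes start at 0), with points for libraries and bars for the mean and SD (n = 2, 2, 3 and 5 from left to right). The acute CS points lie above the acute RA points except for Sphk1 and Plpp3, and the chronic CS points of Spns2 lie below the chronic RA points.

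Of the kinases, Sphk2 was higher in the acute CS libraries and Sphk1 was not separated by smoke at either time. Sphk2 (ENSMUSG00000057342, GRCm38 chromosome 7 from 45709467 to 45718002) was counted at 24.99 CPM in acute RA F and 24.6 CPM in acute RA M, and at 45.2 CPM in acute CS F and 29.3 CPM in acute CS M. The groups did not overlap, with a log2 fold change of 0.59 (standard error, SE, 0.25, edgeR's adjusted p = 0.279), and without acute CS F it was 0.24 (edgeR's adjusted p = 0.893). In the chronic libraries Sphk2 was counted at 30.7, 30.9 and 32.9 CPM in RA and at 22.6, 24.2, 24.7, 31.8 and 33.8 CPM in CS. Here the groups overlapped, since M3 lay within the controls, M4 above them and F, M1 and M2 below (log2 fold change -0.20, SE 0.18, edgeR's adjusted p = 0.717). The acute minus the chronic effect of smoke on Sphk2 was 0.79 on the log2 scale (SE 0.31, edgeR's adjusted p = 0.336).

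Exons of Sphk2 overlap those of Dbp, a clock-controlled transcription factor gene on the opposite strand, over 539 bp, and those of the ribosomal protein gene Rpl18 over 373 bp. The library kit does not mark strand, so reads from the shared stretches cannot be told apart. Dbp was counted at 58.7 and 36.1 CPM in acute RA F and M and at 87.5 and 168 CPM in acute CS F and M (log2 fold change 1.43, edgeR's adjusted p = 0.359). Both Dbp and Sphk2 lay higher in acute CS without overlap, Dbp most in M and Sphk2 most in F. In chronic CS Dbp was counted at 98.3 and 115 CPM in M3 and M4, where Sphk2 was also highest in that group. Dbp was counted at 27.3 to 46.5 CPM in chronic CS F, M1 and M2 and at 17.6 to 37.0 CPM in chronic RA. The part of Dbp reads in the Sphk2 value was not tested. Rpl18 stayed between 144 and 184 CPM in all libraries.

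Sphk1 (ENSMUSG00000061878, chromosome 11 from 116530925 to 116536674), the growth-factor-responsive kinase, was counted at 6.12 and 13.1 CPM in acute RA F and M and at 11.3 CPM in both acute CS libraries. The acute CS values lay between the controls (log2 fold change 0.24, 95% interval -0.71 to 1.18). In chronic RA it ranged from 10.9 to 19.3 CPM and in chronic CS from 11.4 to 24.7 CPM, with overlapping groups (log2 fold change 0.25, 95% interval -0.44 to 0.94).

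Spns2 showed the clearest separation of the chronic groups among the 9 genes. This gene of the S1P exporter (ENSMUSG00000040447, chromosome 11 from 72451638 to 72489904) was counted at 312, 326 and 372 CPM in chronic RA and at 193, 241, 258, 281 and 294 CPM in chronic CS. Every smoke library lay below every control library, M4 lowest. The log2 fold change was -0.41 (SE 0.14, 95% interval -0.72 to -0.10, edgeR's adjusted p = 0.367). The exact permutation test gave p = 0.0357, the smallest it allows. Any gene without overlap gets this value, and 9.41% of all genes had chronic groups without overlap. The value was -0.36 with F, M1 and M2 as the smoke group and -0.47 with M3 and M4, so the deep and the shallow libraries gave the same direction. Without chronic RA F it was -0.32 and no longer under 0.05 without adjustment (edgeR's adjusted p = 0.731). The separation depended on the lymphatic reference: relative to the summed CPM of the 9 lymphatic markers the groups overlapped, Spns2 amounting to 1.32% to 1.78% of that sum in chronic RA and 0.877% to 1.78% in chronic CS, and relative to Prox1 alone they did not (0.160 to 0.178 and 0.0830 to 0.155). Of these 9 markers 6 had a negative chronic log2 fold change, the lowest being Flt4 at -0.36, Mmrn1 at -0.30 and Pdpn at -0.28. The 3 positive values were 0.06 for Prox1, 0.26 for Reln and 0.53 for Ccl21a, which held at most 1.06 CPM. Scaled to the lymphatic marker counts, the chronic value of Spns2 was -0.16 (edgeR's adjusted p = 0.843).

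After acute smoke Spns2 was counted at 188 and 235 CPM in acute RA F and M and at 268 and 235 CPM in acute CS F and M. The groups nearly met, acute CS M lying only just above acute RA M (log2 fold change 0.25, SE 0.20, edgeR's adjusted p = 0.639). Over 13 alternative fits the acute fold change ran from 0.098 to 1.33, the highest when scaled to the lymphatic marker counts. The acute minus the chronic effect was 0.66 (SE 0.24, 95% interval 0.13 to 1.19, edgeR's adjusted p = 0.299). Counted against all 97 genes called for this difference of effects (0.452% of those tested), none was among the 9. Without adjustment Sphk2, Spns2 and S1pr1 passed p under 0.05, 3 of 9 against 11.9% of all genes, and DESeq2 called 0 of the 9 and 4.27% of all genes. Spns2 shares 131 bp of exon with Mybbp1a on the opposite strand, which was counted at 74.1 to 144 CPM.

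Between the controls Spns2 in chronic RA lay above acute RA in all libraries, with a log2 fold change of 0.67 (SE 0.18, edgeR's adjusted p = 0.479), and DESeq2 called it (adjusted p = 0.0459) with 1.18% of all genes. This comparison and that of chronic smoke share the chronic controls, so their values are not independent. Of the 9 genes none passed edgeR's adjusted p between the control groups (0% of all genes), Spns2 alone had an unadjusted p under 0.05 (7.01% of all genes), and Sphk2, Spns2 and S1pr1 did not overlap (34.7% of all genes). Age, time in the study and any pooling of the acute controls cannot be told apart in this comparison.

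**Figure D3:**
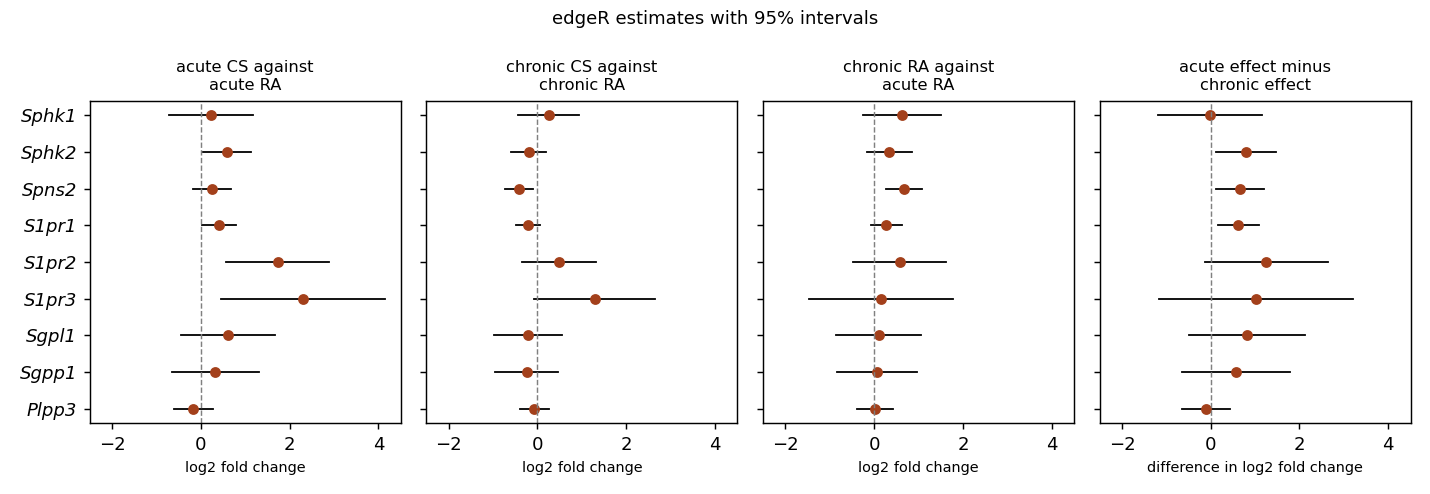
Log2 fold changes of the 9 genes (points) with edgeR's 95% intervals (lines) for the 3 pairs of groups, and for the acute minus the chronic effect of smoke. The intervals of S1pr2 and S1pr3 are the widest, the chronic interval of Spns2 lies below 0, and those of Sphk1, Sgpl1, Sgpp1 and Plpp3 include 0 throughout.

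S1pr1, the leading receptor and the one through which S1P tightens endothelial junctions, was higher in both acute CS libraries. S1pr1 (ENSMUSG00000045092, chromosome 3 from 115710433 to 115715072) was counted at 1003 and 919 CPM in acute RA F and M and at 1330.1 and 1227 CPM in acute CS F and M. The groups did not overlap, with a log2 fold change of 0.41 (SE 0.17, edgeR's adjusted p = 0.269). Prox1 moved the opposite way in the same libraries, so that S1pr1 divided by Prox1 was 0.371 and 0.448 in acute RA and 0.973 and 1.28 in acute CS. S1pr1 is also expressed by blood endothelium and lymphocytes, whose marker sums were higher in acute CS. The sum of 10 lymphoid markers lay at 22.5 to 26.4 CPM in acute RA and 254 to 268 CPM in acute CS, with all 10 genes without overlap (50.1% of all genes), and their part in the S1pr1 value was not tested.

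In the chronic libraries S1pr1 was counted at 1080.2, 1197 and 1220.2 CPM in RA and at 813, 898, 1029, 1097 and 1210.3 CPM in CS. The groups overlapped, since F and M3 lay within the control range and M1, M2 and M4 below it (log2 fold change -0.21, SE 0.12, 95% interval -0.48 to 0.07, edgeR's adjusted p = 0.558). The acute effect exceeded the chronic effect by 0.62 (SE 0.21, 95% interval 0.15 to 1.09, edgeR's adjusted p = 0.261).

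S1pr2 and S1pr3 had the largest fold changes with acute smoke, from low levels. S1pr2 (ENSMUSG00000043895, chromosome 9 from 20962361 to 20976781), one of the minor S1P receptors here, was counted at 2.91 and 7.38 CPM in acute RA F and M and at 24.5 and 9.65 CPM in acute CS F and M. The groups did not overlap, but acute CS F stood well above the other acute libraries. The log2 fold change was 1.73 (SE 0.53, edgeR's adjusted p = 0.113), and without acute CS F it was 0.91 (edgeR's adjusted p = 0.669). Without acute CS M it was 2.25 and passed edgeR's adjusted limit (adjusted p = 0.0435), as did 3.73% of all genes in that fit, and without acute RA M it was 2.52 (edgeR's adjusted p = 0.145).

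S1pr3 (ENSMUSG00000067586, chromosome 13 from 51408639 to 51422797), a receptor known from vascular smooth muscle and pericytes as well as endothelium, was counted at 1.52 and 5.13 CPM in acute RA F and M and at 20.3 and 12.6 CPM in acute CS F and M. Both smoke libraries lay well above both controls, with a log2 fold change of 2.30 (SE 0.84, edgeR's adjusted p = 0.197). Without acute RA F it was 1.68 and without acute RA M, the higher control, it was 3.40 (edgeR's adjusted p = 0.618 and 0.284). In chronic RA it was counted at 0.922, 4.41 and 5.76 CPM and in chronic CS at 3.52, 8.53, 9.29, 11.8 and 11.97 CPM. Of the 5 smoke libraries 4 lay above all controls and M1 within their range (log2 fold change 1.29, SE 0.62, edgeR's adjusted p = 0.475). Without M1 the value was 1.51 and without chronic RA M1, the lowest control, it was 0.84 (edgeR's adjusted p = 0.438 and 0.766).

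Most mesenchymal markers had higher means in the smoke libraries at both times, as S1pr3 did, although its chronic groups overlapped. All 11 lay higher without overlap in acute CS (50.1% of all genes) and 7 of 11 in chronic CS (9.41% of all genes). Dcn was not higher in chronic CS, at 58.9 ± 12.8 CPM (SD, n = 5) beside 62.4 ± 11.7 CPM in chronic RA (SD, n = 3, log2 fold change -0.08). In chronic CS the sum of the 11 was 242 to 391 CPM beside 125 to 156 CPM in chronic RA, and none of the 11 was at 0 in any library. Their part in the S1pr3 and S1pr2 values was not tested. Chronic S1pr2 was counted at 5.75 to 10.5 CPM in RA and 9.19 to 12.9 CPM in CS, with overlapping groups (log2 fold change 0.48, 95% interval -0.36 to 1.31).

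Of the genes of the degrading enzymes none had chronic groups without overlap (9.41% of all genes). Sgpl1 and Sgpp1 had acute groups without overlap, as did 50.1% of all genes. Sgpl1 (ENSMUSG00000020097, chromosome 10 from 61098642 to 61147703), the lyase, was counted at 54.5 and 49.9 CPM in acute RA F and M and at 91.7 and 67.6 CPM in acute CS F and M. The groups did not overlap, but the 95% interval of the log2 fold change of 0.61 ran from -0.44 to 1.67 (edgeR's adjusted p = 0.643). Over 13 alternative fits the fold change ran from 0.38 to 1.70. In chronic CS 4 libraries held 51.5 to 63.6 CPM, inside or near the 50.7 to 63.7 CPM of chronic RA, and M1 held 14.9 CPM from 339 counts. The chronic log2 fold change of -0.21 became 0.04 without M1.

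Sgpp1 (ENSMUSG00000021054, chromosome 12 from 75714249 to 75735729), the S1P phosphatase of the endoplasmic reticulum, was counted at 44.9, 46.2 and 46.2 CPM in chronic RA. In chronic CS it was counted at 38.5, 24.2 and 18.2 CPM in F, M1 and M2 and at 49.9 and 61.9 CPM in M3 and M4. The smoke libraries thus lay on both sides of a narrow control range, the 3 shallow libraries below it and the 2 deep ones above, and the part of depth in this was not tested. The log2 fold change was -0.24 over all 5 (edgeR's adjusted p = 0.813), -0.83 with F, M1 and M2 only (edgeR's adjusted p = 0.229) and 0.29 with M3 and M4 only (edgeR's adjusted p = 0.454). In the acute libraries Sgpp1 ranged from 42.0 to 45.3 CPM in RA and from 49.4 to 60.1 CPM in CS, without overlap (log2 fold change 0.33, 95% interval -0.65 to 1.30). Over 13 alternative fits the acute fold change ran from 0.18 to 1.40.

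Plpp3 (ENSMUSG00000028517, chromosome 4 from 105157347 to 105232764), the surface lipid phosphatase that limits S1P and lysophosphatidic acid signalling, was the only one of the 9 with a negative acute fold change. It was counted at 447 and 508 CPM in acute RA F and M and at 328 and 518 CPM in acute CS F and M. The groups overlapped, acute CS M lying above both controls and acute CS F below (log2 fold change -0.17, 95% interval -0.61 to 0.27), and without acute CS F the value was 0.12. In the chronic groups it varied little, from 465 to 514 CPM in RA and from 379 to 513 CPM in CS (log2 fold change -0.07, 95% interval -0.39 to 0.25).

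Because lymphatic markers were lower in acute CS, the 9 genes were also scaled to the summed counts of 8 of these markers. On that scale all 9 acute fold changes were positive and 8 passed edgeR's adjusted limit, as did 32.3% of all genes, and the median of all genes moved as well, from 0.041 to 1.09. Relative to that median S1pr1 stood at 0.38, Spns2 at 0.24, Sphk2 at 0.61 and Plpp3 at -0.28 on the log2 scale. Under TMM scaling the same differences from the median were 0.37, 0.21, 0.55 and -0.22. In the chronic comparison the median moved from 0.014 to 0.256, Spns2 from -0.41 to -0.16 while its difference from the median was -0.42 on both scales. The sides of the median were thus 8 genes above and 1 below in the acute comparison under both scalings, and 3 above and 6 below in the chronic one.

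**Figure D4:**
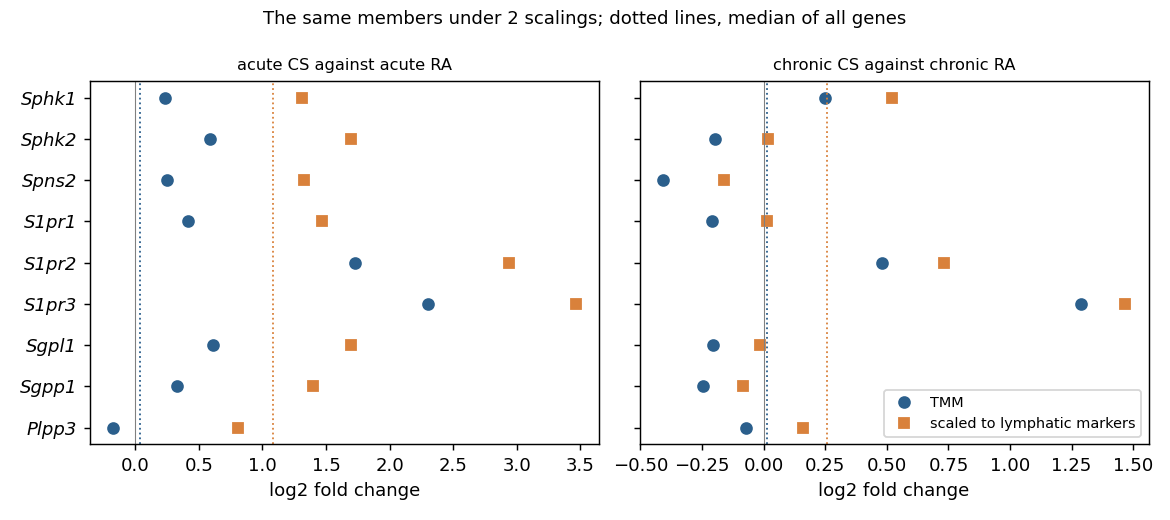
Log2 fold changes of the 9 genes with acute and chronic smoke under TMM scaling (circles) and scaled to lymphatic marker counts (squares), with dotted lines at the median of all genes for each. Members and median shift together, by about the distance between the dotted lines (0.041 and 1.09 in the acute comparison).

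Outside the 9 genes, Acer2 and Acer3, ceramidases that release sphingosine, and Cd69, an antagonist of S1pr1, rose with acute smoke. Of 49 further genes of the pathway, from ceramide synthesis to receptor coupling, 45 were tested, and in the acute comparison 3 passed edgeR's adjusted limit as higher and 0 as lower, where 3.47% of all genes passed. At an unadjusted p under 0.05 there were 9 higher and 2 lower of 45, against 15.7% of all genes, and the list's median log2 fold change was 0.086 beside 0.041 for all genes. In the chronic comparison 0 of 45 passed (0% of all genes), with 2 higher and 5 lower at an unadjusted p under 0.05, against 10.9% of all genes, and a median of -0.08. For the difference between the effects only Cd69 passed (3.94, SE 0.51, edgeR's adjusted p = 0.0300).

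Acer2, a Golgi ceramidase that supplies sphingosine to the kinases, was counted at 154 and 86.5 CPM in acute RA F and M and at 731 and 436 CPM in acute CS F and M. Both smoke libraries lay far above both controls (log2 fold change 2.28, SE 0.39, edgeR's adjusted p = 0.0106). In the chronic groups it was counted at 119 to 137 CPM in RA and at 132 to 299 CPM in CS, where 4 of the 5 values exceeded every control and the groups overlapped only in M1 (log2 fold change 0.65, edgeR's adjusted p = 0.436). Acer3, the ceramidase for unsaturated ceramides, was counted at 30.4 and 34.0 CPM in acute RA F and M and at 99.1 and 60.8 CPM in acute CS F and M (log2 fold change 1.31, edgeR's adjusted p = 0.0137). Its chronic log2 fold change was 0.01 (SE 0.17).

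Cd69, a lymphocyte activation marker whose protein draws S1pr1 from the cell surface, was counted at 3.08 and 3.58 CPM in acute RA F and M and at 72.0 and 98.5 CPM in acute CS F and M. It separated the acute groups most of all pathway genes called (log2 fold change 4.68, SE 0.46, edgeR's adjusted p = 0.00166). Cd69 is a leukocyte gene, and the leukocyte and lymphoid marker sums given above moved with it in the same libraries, and their part in its value was not tested. The calls rested on few libraries: without acute CS F only Cd69 passed (edgeR's adjusted p = 0.00567), without acute RA F Cd69 and Acer2 passed, and without acute RA M none of the 3 did, at adjusted p = 0.127 for Acer2, 0.120 for Acer3 and 0.0563 for Cd69. Their log2 fold changes in these fits were 1.86 to 2.76 for Acer2, 0.92 to 1.36 for Acer3 and 4.58 to 4.89 for Cd69.

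The remaining receptors are known from circulating cells, and which cells gave their reads here was not tested. S1pr4, a receptor of lymphoid and myeloid cells, was counted at 12.4 and 15.1 CPM in acute RA and 25.8 and 31.6 CPM in acute CS (log2 fold change 1.06, edgeR's adjusted p = 0.326), and at 20.6 to 26.4 CPM in chronic RA and 4.49 to 19.3 CPM in chronic CS (log2 fold change -0.98, edgeR's adjusted p = 0.376). The groups did not overlap at either time (50.1% and 9.41% of all genes), and the directions were opposite. The difference of the 2 effects was 2.04 (SE 0.61, edgeR's adjusted p = 0.184). All 10 lymphoid markers were higher without overlap in acute CS, and in chronic CS Cd79a and Ms4a1 were lower and 0 higher. Their part in the S1pr4 value was not tested. S1pr5, the receptor of natural killer cells, reached 23.3 CPM in acute CS F, whereas the other 11 libraries held 0.202 to 4.61 CPM.

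None of the listed genes for other routes of S1P transport and removal passed edgeR's adjusted limit in the smoke comparisons. Apom, the S1P carrier of plasma lipoproteins, did not pass the filter on low counts and was at or below 0.574 CPM. Mfsd2b, the exporter of red cells and platelets, was counted at 0.313 to 4.98 CPM in all groups together, with acute and chronic log2 fold changes of 0.09 and -0.11. Sgpp2, the inducible relative of Sgpp1, was counted at 0 and 1.55 CPM in acute RA F and M and at 15.7 and 3.23 CPM in acute CS F and M, without overlap (edgeR's adjusted p = 0.511), and the chronic groups overlapped. Plpp1, a surface phosphatase related to Plpp3, was counted at 257 and 317 CPM in acute RA and at 367 and 426 CPM in acute CS (log2 fold change 0.47, edgeR's adjusted p = 0.307). Plpp2 was counted at 6.90 to 41.5 CPM, with overlapping smoke and control groups at both times.

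The genes whose log2 CPM ran most like S1pr1, Spns2, Sphk1 and Plpp3 across the 12 libraries, among 12411 genes with a mean of at least 1 log2 CPM, were found by Pearson's r as a description. For S1pr1 they were B4galt1 (r = 0.932), Birc3 (r = 0.920) and Lyrm4 (r = 0.918). For Spns2 they were Furin (r = 0.887), Tbkbp1 (r = 0.883) and Maz (r = 0.880). For Sphk1 they were Plxdc1 (r = 0.862), Gnaz (r = 0.858) and Pacs2 (r = 0.837), and for Plpp3 Hdac1 (r = 0.944), Tpmt (r = 0.906) and Clca3a1 (r = 0.905). The 12 points share groups, depths and cell mixture, and the highest of so many values is large by selection.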

How the data were processed

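LECs from 12 samples were sequenced (acute exposure, 2 CS and 2 RA; chronic exposure, 5 CS and 3 RA), grouped by the labels, with durations and pooling from the study's methods. The deposited values are raw read counts per Ensembl gene. Per the methods, the authors checked reads with FastQC 0.11.9, trimmed them with Skewer, filtered them with Minion and counted genes with STAR on GRCm38. Per the labels, libraries were made with the SMART-Seq v4 and Nextera XT kits, which do not mark strand. The annotation release and strand setting are not given in the sources used here. GENCODE M21 gave names, positions and exon lengths, and 147 of 52636 identifiers were not in it (at most 0.011% of a library's counts).

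Counts of all 12 libraries were fitted by group with edgeR 4.0.16 in R 4.3.3 (filterByExpr, TMM factors, quasi-likelihood F-test, Benjamini-Hochberg adjustment over 21440 genes, limit 0.05), with DESeq2 1.42.0 as an alternative. Intervals at 95% come from edgeR's standard errors. FPKM used the union of exons. Pearson correlations used log2 CPM with a prior count of 2. Figures used matplotlib 3.10.9. A floor of 3 counts is 0.0526 to 0.159 CPM and covers counting error only. The exact two-sided permutation test cannot go below 0.333 (acute), 0.0357 (chronic) or 0.2 (controls). Nothing says whether acute libraries of one group are separate cohorts, so p-values measure the spread between these libraries. In the main fit that spread is pooled over all 4 groups. In simulated counts edgeR called 4.9% of genes changed by 1 on the log2 scale and 43.7% of those changed by 2 in the acute comparison (20414 genes), and 21.4% and 51.7% in the chronic one (20454 genes).

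The genes named are the 9 members, the other pathway genes past the adjusted limit in any comparison, S1pr4, S1pr5, Apom, Mfsd2b, Sgpp2, Plpp1 and Plpp2, Prox1 and Ptprc, and the 3 genes most like S1pr1, Spns2, Sphk1 and Plpp3. Genes overlapping a member, Ccl21a, Lyve1, Flt4, Mmrn1, Pdpn, Mrc1 and Dcn were named after their values were seen. So were Reln, Cd68, Cldn5, Plvap, Emcn, Vwf, Cd79a and Ms4a1. The members, marker lists and pathway lists were chosen with earlier results of these data known. The alternatives were DESeq2, library size or DESeq2 size factors in place of TMM, no filter, a fit of the compared groups alone, a term for sex, the replicate block, robust estimation, lymphatic marker scaling, leaving out each library, subsets of chronic CS, and transcript length.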

Additional observations from a re-analysis of the deposited data

Results flagged for a closer look

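Sgpl1 in chronic CS M1 stood apart from its group at 14.9 CPM, where the other 4 chronic CS libraries held 51.5 to 63.6 CPM. Its gap to the nearest of them was 0.751 of the group's whole range, past Dixon's 95% limit for 5 samples, which chance passes in about 1 in 20 groups.

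For Spns2 every acute CS library lay above acute RA, by as little as 234.97 CPM in acute CS M against 234.92 CPM in acute RA M, and every chronic CS library lay below chronic RA. Neither fold change passed edgeR's adjusted limit. The acute minus the chronic effect was 0.66 on the log2 scale (edgeR's adjusted p = 0.299) and did not pass it either.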

How the results depend on the processing

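Of 603 values of single members under the alternatives, 554 kept their direction and their side of the limit, 14 passed it in addition and 35 changed sign, all of these with a main value below 0.35 in size. DESeq2 called 2 members in the acute comparison (8.98% of all genes) and 1 between the controls (1.18%), lymphatic scaling called 8 in the acute comparison (32.3%) and 3 in the difference of effects (9.29%), and leaving out a library called 0 to 1 in the acute comparison. The number of other pathway genes called in the acute comparison ran from 0 to 3 on leaving out a library (acute RA libraries added after seeing the data). Signs changed with library size scaling for chronic Plpp3 (0.012) and, between the controls, for Sgpl1 (-0.0003), Sgpp1 (-0.039) and Plpp3 (-0.083). With sex as a covariate the Sphk1 difference of effects was 0.17. Lymphatic scaling, which moved the median of all genes to 1.09 (acute), 0.256 (chronic), -0.399 (controls) and 0.848 (difference), gave 0.81 for acute Plpp3, 0.017 for chronic Sphk2, 0.014 for chronic S1pr1 and 0.16 for chronic Plpp3. Between the controls it gave -0.053 for Sphk2, -0.13 for S1pr1, -0.17 for S1pr3, -0.29 for Sgpl1, -0.34 for Sgpp1 and -0.37 for Plpp3, and for the difference 0.79 for Sphk1 and 0.65 for Plpp3. With M3 and M4 as the chronic CS group Sphk2 was 0.058, Sgpl1 0.082 and Sgpp1 0.29. The cause was not tested, beyond the shift of the median.

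On leaving out 1 library at a time, Plpp3 ran from -0.54 to 0.12 (acute), -0.065 to 0.10 (controls) and -0.47 to 0.19 (difference), Sphk1 from -0.21 to 0.85 (acute) and -0.46 to 0.60 (difference), and Sgpl1 from -0.32 to 0.041 (chronic) and -0.0051 to 0.17 (controls). Between the controls S1pr3 ran from -0.47 to 1.26 and Sgpp1 from -0.004 to 0.13.

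Libraries with the same sex and number shared only that number, with correlations of their deviations from -0.042 to 0.069. The replicate block changed no member's call, moved the acute calls over all genes from 745 to 73, and gave 0.20 for the Sphk1 difference of effects. No paired analysis was possible for the controls because they share 1 number.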
